A study of Caenorhabditis elegans with 4 samples.

Results

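Chromosome IV of Caenorhabditis elegans carries the large piRNA gene clusters of the worm genome, and the peaks of a chromatin immunoprecipitation sequencing (ChIP-seq) experiment that fell in them are described here. The members were the peaks of the authors' whole-series list on chromosome IV whose midpoint lay from 4.5 to 7.0 Mb, called the lower region, or from 13.5 to 17.2 Mb, called the upper region. There were 571 members among 9212 peaks on the nuclear chromosomes and 1727 on chromosome IV, 249 in the lower and 322 in the upper region. They made up 33.1% of the peaks of the chromosome on 35.4% of its length, and the other 1156 peaks on IV served as the comparison. All coordinates are on the WormBase build WS220.

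The series holds 2 ChIP samples and 2 Input samples (genomic DNA that was sheared but not precipitated), all from fem-2(b245) hermaphrodites, whose mutated gene, on chromosome III, encodes a protein phosphatase that acts in sex determination. They are labelled as young adults with a germline, while the growth protocol speaks of gravid adults, and the series gives a temperature of 20 degrees Celsius. Extracts came from whole adults, so signal from germline and somatic nuclei was mixed. Input peak lists were not analysed here, and the comparison used no other strain or treatment. The titles name KLE-2, a subunit of the chromosome-compacting complex condensin II, whereas the antibody record names CEC-1, a chromodomain protein, and peaks are described without assigning them to either.

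Piwi-interacting RNAs (piRNAs, or 21U-RNAs in the worm) are small germline RNAs that guide the Argonaute protein PRG-1 to foreign and transposon transcripts. Most worm piRNAs come from very short, separate genes, each with its own upstream motif, and PRDE-1 and SNPC-4 are known to gather at the clusters where these genes are transcribed. The clusters lie between and inside ordinary protein-coding genes. In the RefSeq gene table, which is on the build WBcel235, 14714 of 15363 piRNA genes (95.8%) are on chromosome IV. That build differs from the peak lists, so single piRNA genes and motifs were not placed against peaks, and no sequence is shown.

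The regions differ in their place on the chromosome. The lower region lies in the chromosome centre, and the section between the 2 regions, from 7.0 to 13.5 Mb, is the nearest match to it in position. The upper region covers most of the right arm, and the left section of the chromosome, up to 4.5 Mb, is the matching arm. Replicate 1 had 75 peaks in the regions (22 lower and 53 upper) among 1178, and replicate 2 had 352 (150 lower and 202 upper) among 6421. The replicate lists are thus very unequal in length, the read depth behind them is unknown, and the labels do not say whether the samples came from separate cultures.

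The whole-series peaks nearest to the borders that define the regions had scores from 2.78 to 43.6. Peaks were not scarce at each border, since the 100 kb windows before and after 13.5 Mb held 20 and 18. The first peak inside the lower region (4501398 to 4501585, score 2.78) and the last before it (4471385 to 4471746, score 6) both had low whole-series scores. The latter lay on a replicate 2 peak of 3803 bp with a score of 3100 and on a replicate 1 peak with a score of 62.9. At the other end of the lower region the last peak inside (6976928 to 6977708) scored 20.2 and the first outside (7012793 to 7013008) scored 4.72. In the upper region the first member, from 13499869 to 13500481, crossed the border and scored 43.6, and the last peak before it (13478430 to 13478820) scored 13.1. The last member there (17178331 to 17178676) scored 3.21, against 3.94 for the first peak outside (17214375 to 17214544).

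The lower region was not densely or sparsely populated as a whole in the whole-series list. It had 99.6 peaks per Mb (exact 95% Poisson interval 87.6 to 113), against 102.4 per Mb (96.5 to 108) in the rest of IV, a density ratio of 0.97 (0.85 to 1.12, exact binomial test, adjusted p = 0.810). In replicate 1 it had 8.80 peaks per Mb against 13.8 in the rest of IV (ratio 0.64, 0.39 to 1.00, exact binomial adjusted p = 0.10198). In replicate 2 it had 60 per Mb against 69.5 in the rest of IV (ratio 0.86, 0.72 to 1.03, exact binomial adjusted p = 0.160). All 3 ratios were below 1 and none passed the test. Counting peaks under 2000 bp apart as 1, the ratio was 0.79 (0.64 to 0.96) and passed the exact binomial test (unadjusted p = 0.0151). Without the long runs of peaks described further on, a setting chosen after the data were seen, it was 0.72 (0.61 to 0.84). That setting took out 28.5% of the lower peaks and 3.37% of those in the rest of IV. A fall in the ratio was therefore bound to follow, and a test of it decides nothing.

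By the replicate 2 and whole-series lists, the upper region was sparser than the rest of the chromosome. It had 87.0 whole-series peaks per Mb (77.8 to 97.1), against 102.4 per Mb in the rest of IV, a ratio of 0.85 (0.75 to 0.96, exact binomial test, adjusted p = 0.0284). Replicate 2 gave 54.6 peaks per Mb (47.3 to 62.7) against 69.5 (64.7 to 74.5) in the rest of IV, a ratio of 0.79 (0.67 to 0.92, exact binomial adjusted p = 0.0115). Replicate 1 gave 14.3 per Mb (10.7 to 18.7) against 13.8 (11.7 to 16.2) in the rest of IV, a ratio of 1.04 (0.74 to 1.42, exact binomial adjusted p = 0.810), so the reduced density was not seen in that list. Without the long runs described further on, of which the upper region had none, the whole-series ratio was bound to rise and was 0.88 (0.77 to 0.997). Among the 50% of whole-series peaks with higher scores the ratio was 0.86 (0.71 to 1.02) and did not pass the exact binomial test (unadjusted p = 0.0851). These tests treat each peak as a separate count although peaks lie in groups, which makes the p-values smaller than they should be. Counting peaks under 2000 bp apart as 1, the upper ratio was 0.81 (0.68 to 0.95, exact binomial test, unadjusted p = 0.0103).

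**Figure D1:**
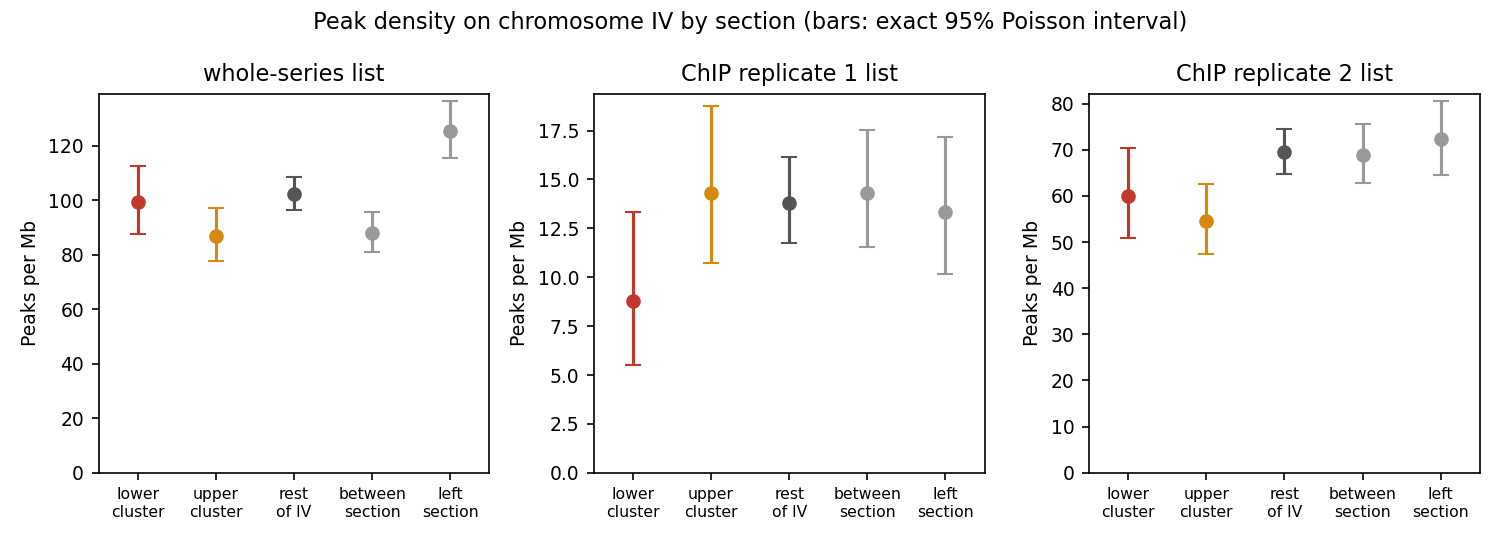
Peak density (peaks per Mb, linear axis from 0) in the lower and upper cluster regions, the rest of chromosome IV, the section between the regions and the left section, for each of the 3 lists. Points are densities and bars exact 95% Poisson intervals; the whole-series list has 99.6 peaks per Mb in the lower and 87.0 in the upper region, against 102.4 in the rest of IV.

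Set against the section most like it in position, the upper region stood further apart. Its 87.0 whole-series peaks per Mb compare with 126 per Mb (115 to 136) in the left section, a ratio of 0.69 (0.60 to 0.80, exact binomial adjusted p = 6.61e-07). The left section count includes 39 peaks in 2 long runs, which the upper region lacked. In replicate 2 the ratio was 0.76 (0.63 to 0.90, exact binomial adjusted p = 0.00558), and in replicate 1 it was 1.07 (0.73 to 1.58, exact binomial adjusted p = 0.707). The lower region had a whole-series ratio of 1.13 (0.97 to 1.313, exact binomial adjusted p = 0.166) over the section between the regions, which had 88.2 peaks per Mb. The replicates gave ratios on the other side of 1, at 0.62 (0.37 to 0.99, exact binomial adjusted p = 0.0750) in replicate 1 and 0.87 (0.72 to 1.05, exact binomial adjusted p = 0.173) in replicate 2.

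Between the regions themselves no density difference passed the test with all peaks of a list counted. The ratio of lower to upper over all whole-series peaks was 1.14 (0.97 to 1.35, exact binomial adjusted p = 0.172). It was 0.61 (0.36 to 1.03, exact binomial adjusted p = 0.172) in replicate 1 and 1.10 (0.88 to 1.36, exact binomial adjusted p = 0.385) in replicate 2. The direction in replicate 1, which had only 22 lower and 53 upper peaks, was the opposite of that in the other lists. Without the long runs the whole-series ratio was 0.82 (0.68 to 0.99). Of the 2 regions only the lower had such runs, so a fall was bound to follow and a test of it decides nothing. 

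Both regions were broken up by long stretches without a peak. Gaps of at least 50 kb between neighbouring whole-series peaks took up 36.0% of the lower region (12 gaps) and 36.3% of the upper region (18 gaps), against 17.7% of the rest of IV (30 gaps). The share was 15.9% in the section between the regions and 19.8% in the left section. In replicate 2 the shares were 42.7% and 49.8% in the lower and upper regions, against 23.8% in the rest of IV. Replicate 1 is too sparse for the measure, with 77.8% and 83.2% of the regions in such gaps against 77.7% of the rest. The gap length was chosen after the data were seen, and the difference was not tested.

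**Figure D2:**
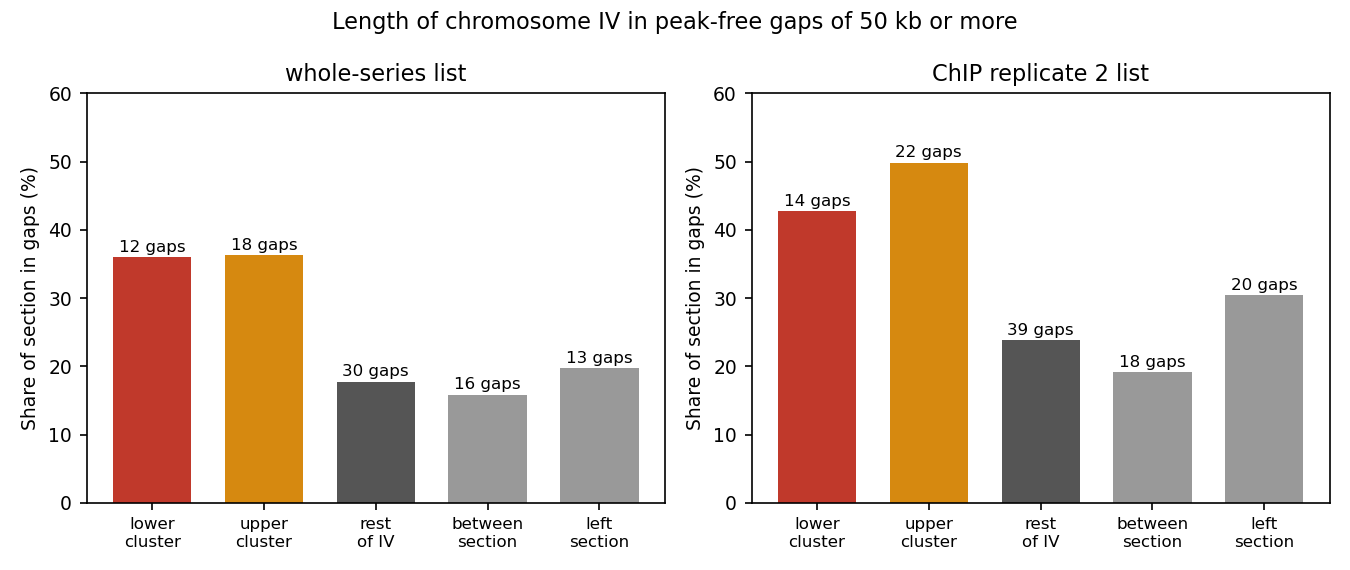
Share of each section of chromosome IV (%, axis from 0) that lies in gaps of at least 50 kb between neighbouring peaks, in the whole-series and replicate 2 lists, with the number of gaps above each bar. Both cluster regions stand above the other sections in both lists, at 36.0% and 36.3% against 17.7% for the rest of IV in the whole-series list.

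Of the 5 longest stretches of chromosome IV without a whole-series peak, 4 lay in the regions. The longest, of 136 kb, extended from 4927595 to 5063372 in the lower region. It began directly after a group of 3 strong, wide peaks that reached position 4927594. Neither replicate had a peak in its interior, since replicate 1 had none and the only replicate 2 peak touching it lay at its far edge, where the replicate 2 list had its own longest gap of the region (4927559 to 5063114). The next longest, of 135 kb, lay in the upper region from 16224613 to 16359950. It was followed by stretches of 118 kb (15201941 to 15319718) and 104 kb (14552314 to 14656593), also in the upper region. The replicate peaks that touched the stretches of 135 and 118 kb lay across their ends. The stretch of 104 kb had 2 replicate 2 peaks wholly inside it and no replicate 1 peak, so it was free of whole-series peaks alone.

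Peaks were unevenly spread within each region. Windows of 500 kb held 49, 41, 23, 39 and 97 whole-series peaks along the lower region, from its start to its end. Replicate 2 had 32, 32, 27, 27 and 32 peaks in the same windows and replicate 1 had 9, 5, 1, 4 and 3. The last window was thus the fullest by the whole-series count alone. In the upper region the 7 full windows held 61, 43, 35, 47, 31, 36 and 38 whole-series peaks, with 20 to 35 replicate 2 peaks and 3 to 12 replicate 1 peaks each. The replicate 1 maximum of 12 fell in the window from 15.0 to 15.5 Mb. In 100 kb windows the median was 6 whole-series peaks in the lower region (range 2 to 40) and 7 in the upper (1 to 23), against 9 (1 to 31) in the rest of IV.

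**Figure D3:**
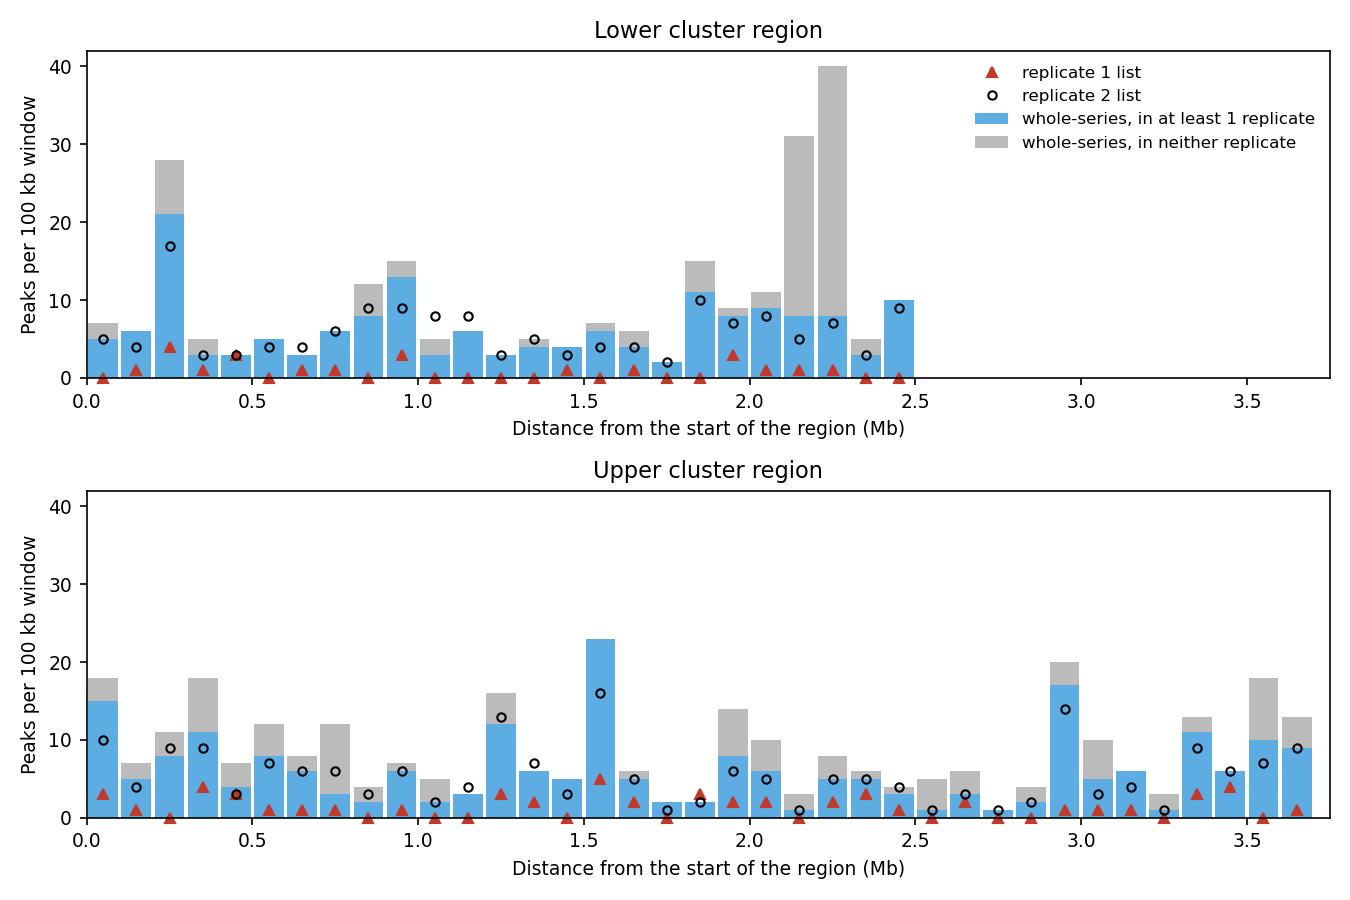
Peaks per 100 kb window along the lower (25 windows) and upper (37 windows) cluster regions by distance from the start of each region in Mb. Stacked bars show whole-series peaks that a replicate peak overlaps (blue) or none overlaps (grey), triangles the replicate 1 list and circles the replicate 2 list; the tallest bar, of 40 peaks in the lower region, holds 32 peaks found in neither replicate.

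The full last window of the lower region came from a dense block of weak peaks. From 6668435 to 6728690, over 60.3 kb or 2.41% of the region, there were 58 whole-series peaks, which is 23.3% of its members. Their scores ran from 2.01 to 13.8 with a median of 5.10, and together they covered 39.8% of the block. No replicate 2 peak lay in the block, and 1 replicate 1 peak did, from 6689777 to 6692679 with a score of 53.5, close to the lowest in its list. Of the 58 peaks, 55 were in neither replicate and 3 lay on that replicate 1 peak.

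The block held 3 runs and 1 peak between the first pair of them (6683604 to 6684003, score 4.32), counting as a run at least 10 peaks with gaps under 2000 bp. They lay from 6668435 to 6675570 (11 peaks), from 6686663 to 6703768 (18 peaks) and from 6708736 to 6728690 (28 peaks), with 11.1 kb and 4.97 kb between them. The other run of the lower region was of another kind. It lay from 4715810 to 4728225 and had 14 peaks with scores from 3.39 to 227. Of these, 4 were overlapped by both replicates, and it held the highest score of the region. The upper region had no run of at least 10 peaks among its 322 peaks, and the rest of IV had 2 with 39 peaks. The longer of those 2 lay in the left section, from 890791 to 913213, and was like the block of weak peaks. It had 26 peaks with scores from 1.44 to 11.7, all in neither replicate. Runs of at least 5 peaks, the long ones included, numbered 8 in the 2.5 Mb of the lower region and 9 in the 3.7 Mb of the upper. The rest of IV had 22 in 11.3 Mb, of which 14 lay in the 4.5 Mb of the left section.

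Fewer lower than upper peaks were found in both replicates. The count was 24 of 249 in the lower region (9.64%, Clopper-Pearson 95% interval 6.27 to 14.0%) and 51 of 322 in the upper (15.8%, 12.0 to 20.3%), against 178 of 1156 (15.4%, 13.4 to 17.6%) in the rest of IV and 14.3% of all nuclear peaks. The 249 include the 58 peaks of the block of weak peaks, none of which was in both replicates. A share of 19.0% (15.9 to 22.5%) in the section between the regions lay above the interval of the lower region, and the left section had 11.5% (8.99 to 14.4%). Replicate 2 alone accounted for 133 lower (53.4%) and 176 upper (54.7%) peaks, against 676 (58.5%) in the rest of IV. Replicate 1 alone accounted for 5 lower peaks (2.01%, 0.66 to 4.62%) and 1 upper peak (0.31%). In the rest of IV it accounted for 4 (0.35%), and over all nuclear peaks for 1.49%. Of the 5 lower peaks, 3 lay on the same replicate 1 peak. These shares have no test across samples.

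Peaks found in neither replicate numbered 87 in the lower region (34.9%, 29.0 to 41.2%) and 94 in the upper (29.2%, 24.3 to 34.5%), against 298 (25.8%, 23.3 to 28.4%) in the rest of IV and 23.2% of all nuclear peaks. In the lower region 60 of the 87 sat in the long runs, so its share was bound to fall without them. Among its 178 peaks outside runs 27 were in neither replicate (15.2%, 10.2 to 21.3%), against 23.8% (21.3 to 26.4%) in the rest of IV. The section between the regions, which had no runs, had 17.3% (14.3 to 20.6%). The upper region, also without runs, was near the left section, where 30.4% (26.5 to 34.5%) of peaks outside runs were in neither. Peaks in neither replicate were weak, with median scores of 4.32 in the lower and 4.72 in the upper region and highest scores of 22.5 and 44.2. Among the 50% of whole-series peaks with higher scores, 4.85% of lower (1.59 to 11.0%) and 5.66% of upper peaks (2.62 to 10.5%) were in neither. These intervals overlapped almost wholly, and no share of the rest of IV is given for this setting.

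**Figure D4:**
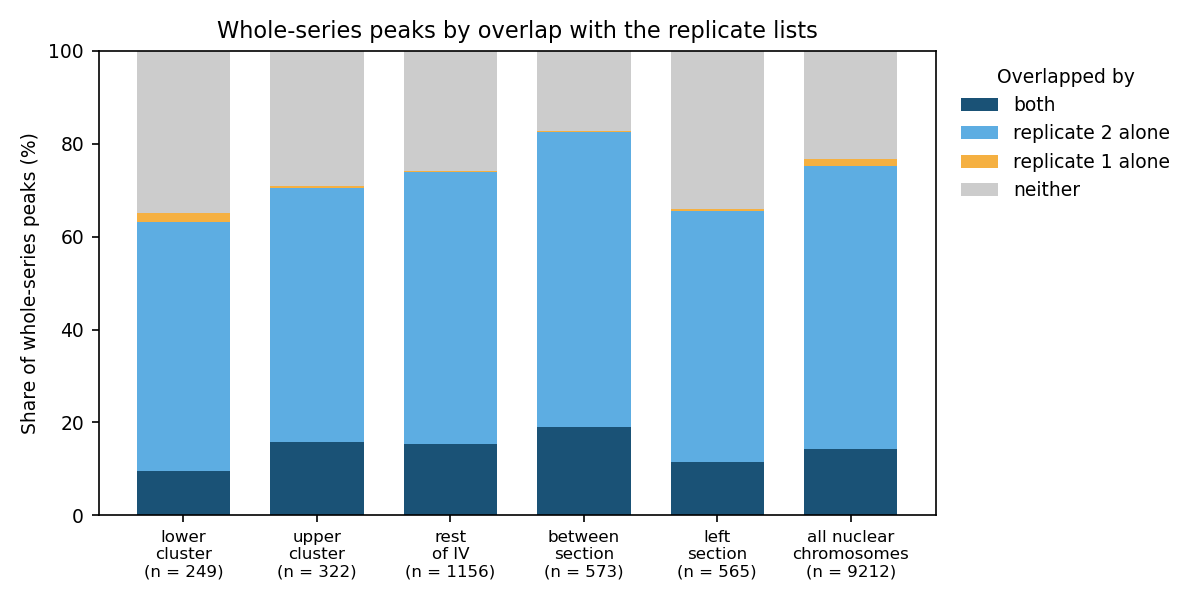
Whole-series peaks (% of each section, stacked to 100) overlapped by at least 1 bp by peaks of both replicates, of replicate 2 alone, of replicate 1 alone or of neither, for the cluster regions, the other sections of IV and all nuclear chromosomes. The lower region has the smallest share in both replicates (9.64%) and the largest in neither (34.9%) of the 6 bars shown. The left section is close to it in neither, at 34.0%. Without the block of weak peaks the lower share in neither is 16.8% (11.8 to 22.8%), a fall that was bound to follow since 55 of its 58 peaks are in neither.

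Seen from the replicates, nearly all replicate 1 peaks of the regions lay on a replicate 2 peak. The counts were 19 of 22 in the lower region (86.4%, 65.1 to 97.1%) and 51 of 53 in the upper (96.2%, 87.0 to 99.5%), against 144 of 156 (92.3%) in the rest of IV and 90.8% over all nuclear replicate 1 peaks. Of the replicate 2 peaks 18 of 150 lower ones (12.0%) and 49 of 202 upper ones (24.3%, 18.5 to 30.8%) lay on a replicate 1 peak, against 142 of 785 (18.1%, 15.5 to 21.0%) in the rest of IV. A whole-series peak overlapped 21 of the 22 lower (95.5%, 77.2 to 99.9%) and 52 of the 53 upper replicate 1 peaks (98.1%, 89.9 to 99.95%). In the rest of IV the count was near these, at 143 of 156 (91.7%, 86.2 to 95.5%).

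In replicate 1 the median score was higher in the upper than in the lower region, while the median widths were alike. Scores are the authors' own values per peak, on a scale that is not stated, and are compared only within a list. Replicate 1 peaks had a median score of 198 in the lower region (interquartile range 74.7 to 369) and 310 in the upper (119 to 696), against 145 (72.0 to 369) in the rest of IV. Their median widths were 1499 bp and 1482 bp in the lower and upper regions, against 1198 bp in the rest of IV. The ranges of the 3 sets overlapped throughout.

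In replicate 2 many peaks had a score of exactly 3100, a tie that cannot be ranked. Peaks at or above this value made up 26 of 150 peaks in the lower region (17.3%, 11.6 to 24.4%) and 51 of 202 in the upper (25.2%, 19.4 to 31.8%), against 132 of 785 (16.8%, 14.3 to 19.6%) in the rest of IV and 16.2% of all nuclear replicate 2 peaks. Median scores differed little, at 516 and 522 in the lower and upper regions against 501 in the rest of IV. Among replicate 1 peaks with a replicate 2 partner, the partner reached 3100 in 18 of 19 lower (94.7%, 74.0 to 99.9%) and 43 of 51 upper cases (84.3%, 71.4 to 93.0%), against 97 of 144 (67.4%, 59.1 to 74.9%) in the rest of IV. The left section had 39 of 53 (73.6%, 59.7 to 84.7%), an interval that overlapped those of both regions. The section between the regions had 56 of 88 (63.6%, 52.7 to 73.6%), and the share over all nuclear peaks is not given here.

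In the whole-series list the median score was 7.81 (interquartile range 4.24 to 27.4) in the lower and 9.30 (4.34 to 34.8) in the upper region, against 9.41 (4.72 to 33.3) in the rest of IV. Without the block of weak peaks the lower median was 10.8 over 191 peaks. A rise was bound to follow, and no weak peaks were left out of the rest of IV. The top 10% of scores over all chromosomes held 24 lower peaks (9.64%, 6.27 to 14.0%) and 48 upper peaks (14.9%, 11.2 to 19.3%), against 118 (10.2%, 8.52 to 12.1%) in the rest of IV and 10.0% by definition over all nuclear peaks. The lowest 10% held 37 lower (14.9%) and 43 upper peaks (13.4%), against 130 (11.2%) in the rest of IV. The upper region was thus above the rest of IV in its share at both ends of the score range, and its interval for the low end (9.84 to 17.6%) included the value of the rest of IV.

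Although the upper region had fewer peaks per Mb, they covered as much sequence. Whole-series peaks covered 4.18% of the lower and 4.54% of the upper region, against 4.48% of the rest of IV. Mean peak widths were 420 bp and 522 bp in the lower and upper regions, against 437 bp in the rest of IV, while the medians were 331 bp, 311 bp and 332 bp. Peaks of 2000 bp or more numbered 2 in the lower region and 10 in the upper (3.11%, 1.5 to 5.64%), against 14 (1.21%, 0.66 to 2.02%) in the rest of IV and 1.52% of all nuclear peaks. Among peaks found in both replicates the median width was 592 bp in the lower and 1132 bp in the upper region, against 685 bp in the rest of IV. In replicate 2 the covered share was 7.39% in the lower and 7.38% in the upper region, against 8.98% of the rest of IV, and in replicate 1 it was 1.39% and 2.42%, against 2.11%.

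**Figure D5:**
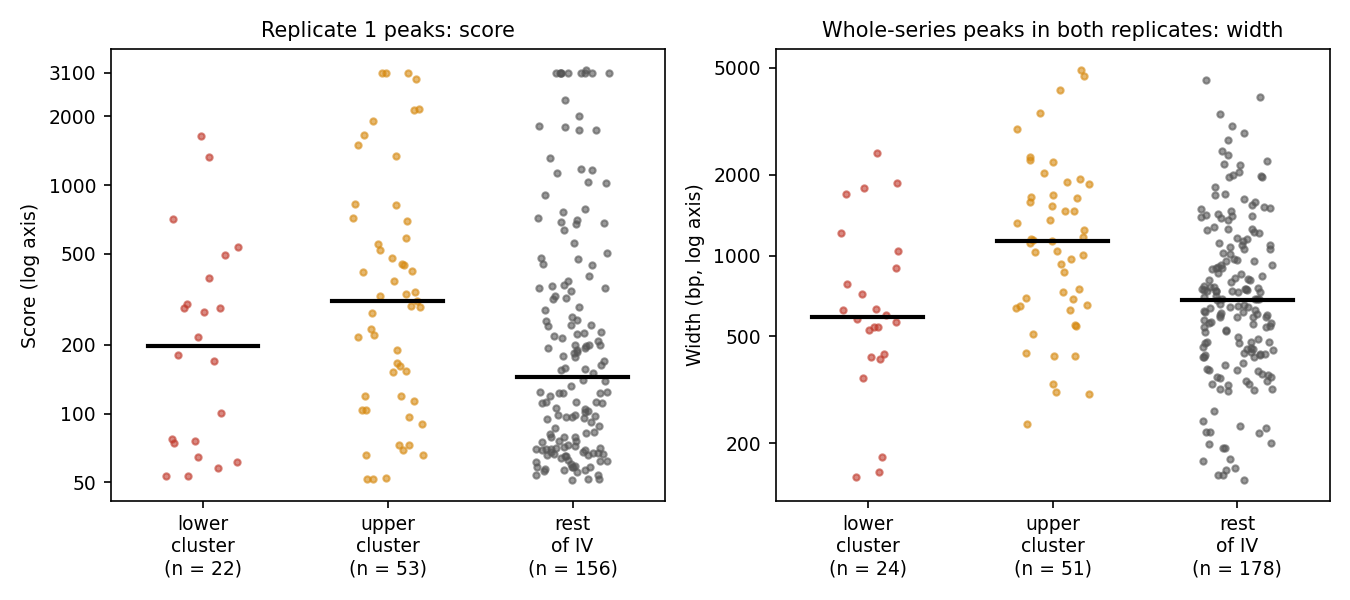
Scores of replicate 1 peaks (left, log axis) and widths in bp of whole-series peaks found in both replicates (right, log axis) in the lower region, the upper region and the rest of chromosome IV. Each point is 1 peak and the black line the median, which is 198, 310 and 145 for the scores and 592, 1132 and 685 bp for the widths.

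The strongest members of the lower region lay near its start. Of its 10 highest-scored peaks that both replicates contained, 7 were in the first 500 kb. The highest, from 4727593 to 4728225, had a whole-series score of 227, with 1325 in replicate 1 and 3100 in replicate 2. It closed the run of 14 peaks and shared it with the peaks from 4720171 to 4720957 (score 208) and from 4725362 to 4725987 (score 188). A peak from 4749746 to 4750310 scored 182, with 712 in replicate 1. The 5 highest replicate 1 scores of the region included only 1 peak outside the first 500 kb, from 6756092 to 6757199 with a score of 539.

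The group of 3 peaks at the edge of the longest gap was of like strength. Its first peak, from 4920585 to 4923002, was the widest of the lower region at 2418 bp and scored 209, with 1638 in replicate 1, the highest replicate 1 score of the region. It was followed by peaks from 4923470 to 4925334 (score 165) and from 4925903 to 4927594 (score 198.8). Each of the 3 had its own peak in both replicates, and the replicate 2 score was 3100 for each. The 3 others of the 10 lay apart from these groups, from 5183594 to 5184315, from 5947705 to 5948116 and from 6117697 to 6118279, with whole-series scores of 168, 148 and 159. These stood at 74.2, 101 and 61.3 in replicate 1, below that list's median of 148, and at 3100 in replicate 2.

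The strongest members of the upper region were wider. Its 10 highest-scored peaks in both replicates had whole-series scores from 199.4 to 230 and a median width of 1934 bp, against scores of 148 to 227 and a median of 678 bp for the 10 of the lower region. Of the upper 10, 5 lay between 15.0 and 15.5 Mb. The highest, from 15078275 to 15082923, was 4649 bp wide, scored 230 and had a replicate 1 score of 2926. With its neighbour from 15075883 to 15078118 (score 209) it lay under 1 replicate 2 peak of 6624 bp. At lower coordinates, the peak from 15058659 to 15060928 (score 204) had 3100 in both replicates. The peak from 15188086 to 15191032 scored 199.4, with 2143 in replicate 1. The last of the 5, from 15319719 to 15321189 (score 214, with 327 in replicate 1), began where a peak-free stretch of 118 kb ended. Outside 15.0 to 15.5 Mb lay the peaks from 14739941 to 14741302 (score 221), from 15826003 to 15827634 (score 202), from 16153080 to 16154211 (score 218) and from 16845168 to 16845794 (score 201), and the widest peak of the region.

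The widest member of all lay from 14476132 to 14481046. It was 4915 bp wide and scored 208, and single peaks of 5442 bp in replicate 1 (score 1911) and 5419 bp in replicate 2 (score 3100) covered the same place. Next by width were the highest-scored peak named above and a peak of 4126 bp from 13929212 to 13933337, which scored 135. All 10 upper peaks of 2000 bp or more were in replicate 2, and 9 were also in replicate 1. The exception, from 16880368 to 16883407, scored 198 in the whole-series list. Presence in both replicates was not particular to the wide peaks of the upper region. In the rest of IV, peaks of 4497 and 3882 bp were in both as well, and the share there is not given. Of the 2 wide peaks in the lower region, the one from 5464980 to 5467123 was in replicate 1 alone, with a replicate 1 score of 278 and a whole-series score of only 9.57. The next widest there, of 1930 bp from 6688880 to 6690809, lay in the block of weak peaks and scored 8.07.

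The highest-scored replicate peaks were found in part in both replicates. In replicate 1 the peaks of the upper region with a score of 3100 were those from 13846283 to 13847996, from 15058576 to 15061253 and from 15373447 to 15375252, and all had 3100 in replicate 2 as well. A replicate 1 peak from 16458088 to 16459162 scored 2164 and had a whole-series score of 81.3. In replicate 2, 2 upper peaks above 3100, with scores of 3233 (14956295 to 14957624) and 3205 (16490862 to 16493467), had no replicate 1 peak and overlapped whole-series peaks with scores of at most 75.9 and 35.7. In the lower region a replicate 2 peak of 3777 bp with score 3100 (6903311 to 6907087) had no replicate 1 peak and enclosed or touched 4 whole-series peaks, of which the highest scored 66.4.

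Replicate 1 peaks without a replicate 2 peak were few and mostly weak. The lower region had 3, namely the wide peak from 5464771 to 5467142 (score 278), the peak in the block of weak peaks (score 53.5) and 1 from 6498996 to 6500066 (score 57.8), which was not in the whole-series list either. The upper region had 2, from 13831061 to 13832052 (score 52.4) and from 16944759 to 16945757 (score 65.8). The lowest score in the replicate 1 list was 50.03, so 4 of these 5 lay close to the bottom of it.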

How the data were processed

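The submitters' processing notes name BWA, with no version, and the build ce10. The authors deposited 3 peak lists with a position and a score for each peak. Per the file contents, MACS was the caller of the replicate lists and MACS v2 of the whole-series list. Per the file headers, coordinates are on WS220. Thresholds, the input used and pooling are not given in the sources used here. The score scale is not stated, and depth is unknown.

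From these lists, peaks were placed by midpoint, and peaks sharing at least 1 bp were called overlapping. Densities carry exact Poisson intervals and shares Clopper-Pearson intervals, both of counting error only. Density ratios were tested with two-sided exact binomial tests and Benjamini-Hochberg adjustment over 6 (region against rest, region against matching section) or 3 (lower against upper) comparisons. With 2 ChIP samples there was no test across samples. Peaks named are the 10 highest-scored in both replicates and the 3 widest per region, the long runs, the 5 highest-scored of each replicate, unshared replicate 1 peaks and peaks at the borders. In replicate 2, where many scores tie at 3100, only examples of the 5 are given. The block of 3 runs, the gaps of 50 kb, all peaks of 2000 bp or more and a wide replicate 2 peak were singled out after their values were seen. The regions and lists were chosen with earlier results of these data known. Motif and gene overlap were not analysed here. Calculations used Python 3.11.15 and scipy 1.17.1 and were tested on simulated data.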

Additional observations from a re-analysis of the deposited data

How the results depend on the processing

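Of 55 alternative settings over 13 results, 33 were classed as unchanged. These include every setting that placed peaks by at least 1 bp in a region, which returned the main values. They also include shares and medians that had no test. The lower region's density ratio over the rest of IV (0.97) passed the exact test with neighbouring peaks merged (0.79). It was 0.72 with runs left out, where a fall was bound to follow, and 1.13 over the section between the regions. The replicate lists gave 0.64 to 0.86. The upper ratio (0.85) was 0.86 and missed the test in the top 50% of scores, and it was 0.81 with merged peaks. For it the replicate lists gave 0.79 to 1.04, with replicate 1 turning the direction. The lower-to-upper ratio (1.14) turned to 0.96 in the top 50% of scores, 0.97 with merged peaks and 0.82 without runs. For this ratio the replicate lists gave 0.61 to 1.10. In the top 50% of scores, the lower share in both replicates was 19.4% (12.3 to 28.4%) and the upper share 31.4% (24.3 to 39.3%). The lower and upper shares in neither were 4.85% and 5.66%, and none of these is set against the rest of IV. Leaving out runs moved the lower share in neither to 15.2%, where a fall was bound to follow. With 1 replicate list, peaks without an overlap made up 36.9% to 88.4% of lower and 29.5% to 83.9% of upper peaks. Without peaks in neither replicate, median scores were 17.6 (lower) and 17.3 (upper), and the upper median width was 375 bp. The excess of long gaps over the rest of IV in the lower region (18.3 points) was 11.3 points with gaps of 30 kb; the replicate lists gave 0.171 to 18.9 points, and 5.51 to 26.0 points in the upper region (18.6). The cause was not tested. Settings for runs and gaps were chosen after seeing the data. No paired analysis was possible because the Input samples have no list analysed here and a single list has no spread.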

Other observations

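Other chromosomes varied as much as the sections of IV in their long peak-free stretches. In the whole-series list, gaps of at least 50 kb took up 36.0% of the lower and 36.3% of the upper cluster region, compared with 8.40% of chromosome I, 22.9% of II, 7.80% of III, 28.9% of V and 54.9% of X. The cluster regions thus stood above each autosome as a whole and below X.

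Replicate 1 peaks of the upper region were seldom split in the whole-series list. Only 2 of 53 (3.77%, Clopper-Pearson 95% interval 0.46 to 12.98%) overlapped at least 2 whole-series peaks, compared with 5 of 22 (22.7%, 7.82 to 45.4%) in the lower region and 33 of 156 (21.2%, 15.0 to 28.4%) in the rest of IV. In replicate 2 the shares were 17.3% of upper and 13.3% of lower peaks, against 18.1% in the rest of IV.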
